A study of Mus musculus with 12 samples.

Results

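The CDK inhibitors and D-type cyclins of mouse colonic crypts were examined as a set of 10 genes, taken by symbol from the 55471 rows of the gene table. The set held the CIP/KIP inhibitors Cdkn1a, Cdkn1b and Cdkn1c, the INK4 inhibitors Cdkn2a, Cdkn2b, Cdkn2c and Cdkn2d, and the D-type cyclins Ccnd1, Ccnd2 and Ccnd3. All 10 were found, and 9 of them passed the filter on low counts that left 14610 genes to test; Cdkn2a did not. RNA came from crypts freed with EDTA from the colon of female C57BL/6J mice aged 8 weeks, with 3 mice in each of 4 groups and 1 library per mouse. All 12 mice carried floxed p53 (Trp53) alleles. In the CBPWTp53-floxed and CBPAAp53-floxed groups p53 was intact, and in the CBPWTp53ΔIEC and CBPAAp53ΔIEC groups Cre under the Villin promoter deleted it in intestinal epithelial cells. CBPAA is a knock-in, present in every cell of the mouse, in which serines of the coactivator CBP (Crebbp) that the kinase IKKα phosphorylates are alanines. The study followed p21, the product of Cdkn1a, as protein and by the binding of CBP and p53 at its promoter. It reported more p21 protein in colon sections of CBPAA than of CBPWT mice, which were not described as p53-floxed. It reported less p21 in CBPAAp53ΔIEC organoids on a single blot. In crypts it reported CBP and p53 enriched at the p21 promoter in CBPAA mice, with the CBP enrichment absent in CBPAAp53ΔIEC mice. The comparisons here ask whether the RNA of Cdkn1a and its relatives differed with either genotype, and do not test the protein.

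D-type cyclins bind CDK4 and CDK6, and the complexes phosphorylate the RB protein, which releases E2F factors and lets a cell enter S phase. INK4 proteins (p16, p15, p18 and p19, from Cdkn2a, Cdkn2b, Cdkn2c and Cdkn2d) bind CDK4 and CDK6 and keep D-type cyclins off them, while CIP/KIP proteins (p21, p27 and p57, from Cdkn1a, Cdkn1b and Cdkn1c) bind cyclin-CDK complexes, above all those of CDK2. In the crypt, cells divide near the base and leave the cycle as they move up, with cyclin D1 and D2 known in the dividing part and p21 and p27 in cells that have stopped dividing. Cdkn1a is the classic target of p53, which binds response elements upstream of the gene.

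The upstream sequence of Cdkn1a is shown first because p53 was the deleted factor, and that of Cdkn2c because it was the inhibitor with the largest change. RefSeq windows (GRCm38.p6) were found for 7 of the 10 genes, 11 windows in all, and the 250 bases before each start were searched. A match to the p53 response element (20 bases in 2 adjoining half-sites of 10, at most 1 mismatch outside the core C and G) was present in 19 of 32851 windows (0.0578%), and among the members only in the window before the upstream start of Cdkn1a. It lay 51 to 32 bases before that start, at chr17:29090928-29090947. In the first sequence the capitals mark this element; in the second, they mark the E2F motif TTCCCGC, 25 to 19 bases before the upstream start of Cdkn2c.
Cdkn1a, chr17:29090729-29090978, plus strand: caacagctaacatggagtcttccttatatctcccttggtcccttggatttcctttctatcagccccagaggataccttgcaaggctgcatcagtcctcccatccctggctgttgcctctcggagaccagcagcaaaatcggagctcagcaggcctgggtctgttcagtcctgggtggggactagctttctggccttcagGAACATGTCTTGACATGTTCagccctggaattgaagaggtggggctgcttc
Cdkn2c, chr4:109666757-109667006, minus strand: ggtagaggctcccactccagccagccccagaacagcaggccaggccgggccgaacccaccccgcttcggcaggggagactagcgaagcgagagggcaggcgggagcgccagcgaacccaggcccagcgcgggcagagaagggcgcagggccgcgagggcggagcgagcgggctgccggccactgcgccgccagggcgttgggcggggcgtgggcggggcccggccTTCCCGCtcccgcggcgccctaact

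Of the E2F motifs searched on both strands (TTCCCGC and the variants TTGGCGC or TTCGCGC or TTGCCGC), at least 1 was present in 7.89% of all windows. Among the members it was found before the upstream starts of Cdkn2c and Cdkn2a, as TTCCCGC in both, and it shared no base with a GC box. The GC box GGGCGG occurred in 32.7% of all windows, 3 times each before Cdkn2c and Cdkn2d. A second Cdkn1a start, 2790 bases downstream of the first, had 2 GC boxes and no p53 match. The counts are per gene and do not tell these starts apart. Of the other 18 genes with a p53 match, Ccng1 and Rps27l are in the list of p53 targets used below, and their elements are printed beside that of Cdkn1a.
Cdkn1a, chr17:29090928-29090947: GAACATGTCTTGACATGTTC
Ccng1, chr11:40755462-40755481: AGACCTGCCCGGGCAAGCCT
Rps27l, chr9:66946296-66946315: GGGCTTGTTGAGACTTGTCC

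In GRCm38, Cdkn2a (chr4:89274471-89294653), Cdkn2b (chr4:89306299-89311039) and Cdkn2c (chr4:109660876-109667189) lie on the minus strand of chromosome 4. Ccnd2 (chr6:127125162-127152193) and Cdkn1b (chr6:134920401-134925513) are on chromosome 6, Cdkn1c (chr7:143458339-143461050) and Ccnd1 (chr7:144929931-144939925) on chromosome 7, Cdkn2d (chr9:21288410-21291407) on chromosome 9, and Cdkn1a (chr17:29090976-29100727) and Ccnd3 (chr17:47505051-47599691) on chromosome 17. Genes on the opposite strand overlap 5 members. LTO1 shares 1771 bases with Ccnd1 and had 259 to 437 counts per library, and Bysl shares 361 bases with Ccnd3 and had 151 to 291. The overlapping AC167363.2 (Cdkn1a), Gm44732 (Cdkn1c), and Gm43126 and 9330179D12Rik (Ccnd2) had at most 7 counts in any library. Whether counting used strand is not given in the sources used here, so reads from overlapping genes could not be told apart.

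The libraries held 11177430 to 18029125 reads assigned to genes. Trp53 TPM (a level scaled to gene length and library size) was 23.3 to 33.5 in the 6 p53-floxed mice and 3.26 to 6.13 in the 6 p53ΔIEC mice. Epithelial markers summed to 15925 to 22665 TPM per library, and stromal and endothelial markers to 5.49 to 9.55, with 12 of 15 at 10 or fewer counts in every library and Cdh5 at 0. The library names hold a number whose meaning the labels do not give. It is under 200 in all 6 p53-floxed libraries and in 2 p53ΔIEC libraries (CBPWTp53ΔIEC replicate 1 and CBPAAp53ΔIEC replicate 3), and above 200 in the other 4. Those 2 libraries stood apart from the other 4 p53ΔIEC libraries. Trp53 was at 5.44 and 6.13 TPM in these 2, against 3.26 to 5.05 in the other 4. Their 18 proliferation markers summed to 325 and 231 TPM, against 597 to 786 in the other 4 and 192 to 286 in the p53-floxed libraries. Their small intestine and Paneth markers summed to 21614 and 10751 TPM, against 648 to 5527 and 2350 to 12368, and their leukocyte markers to 439 and 264 TPM, against 20.3 to 165 and 29.6 to 199. The part of these differences in the results was not tested, and results of the members that rest on these libraries are given with and without them. In bulk RNA, fewer cells of a type and less RNA per cell cannot be told apart.

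Cdkn1a had the highest TPM of the set, 167 ± 27.3 (SD, n = 12), and stood 720th of the 14610 genes tested. Cdkn2b followed with 87.6 ± 8.81, then Ccnd2 with 55.2 ± 13.0, Ccnd1 with 54.3 ± 11.6 and Cdkn1b with 53.4 ± 7.31. The order of these last 3 was not resolved: Ccnd2 was above Ccnd1 in 6 of 12 libraries, and Ccnd1 above Cdkn1b in 5. A lower tier held Cdkn2d (18.5 ± 5.70), Ccnd3 (15.2 ± 3.22), Cdkn1c (15.2 ± 2.71) and Cdkn2c (10.4 ± 5.38), against a median of 12.3 TPM over the genes tested. Cdkn2d was above Ccnd3 in 11 of 12 libraries, while Ccnd3 was above Cdkn1c in 5 and Cdkn1c above Cdkn2c in 8. Within each class a single gene or pair held most of the TPM. Cdkn1a made up 70.5% ± 3.97 of the CIP/KIP sum, Cdkn2b 75.7% ± 5.85 of the INK4 sum, and Ccnd1 and Ccnd2 43.6% ± 2.89 and 44.1% ± 3.69 of the D-type cyclin sum.

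**Figure D1:**
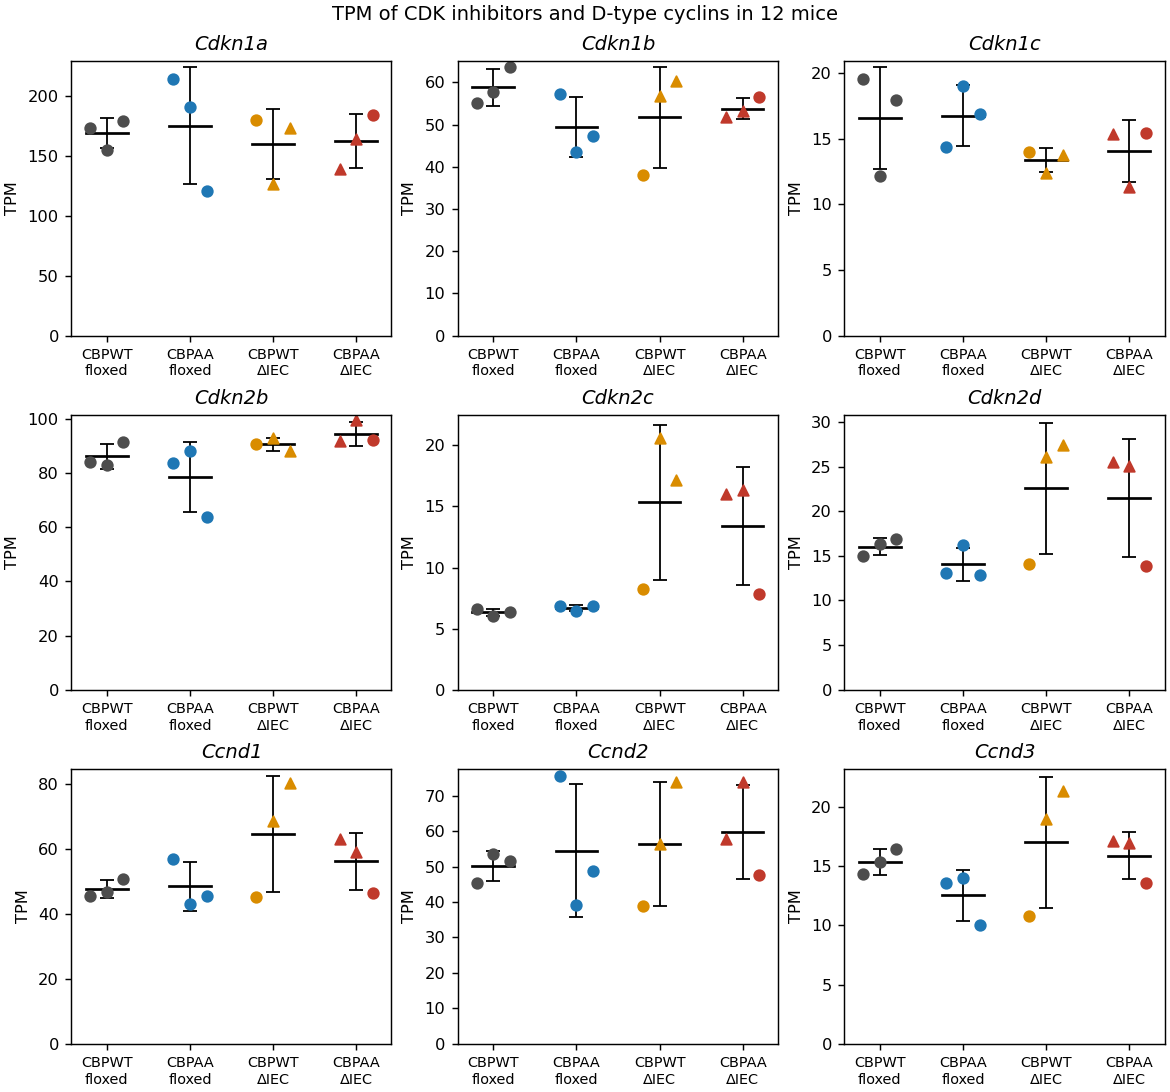
TPM (y axis, from 0) of the 9 members that passed the filter, by group (x axis); each point is a mouse, bars are the mean and SD (n = 3), circles are libraries numbered under 200 and triangles those above 200. Cdkn1a lies between 120 and 214 TPM in all groups, while Cdkn2c and Cdkn2d are highest in the 4 libraries drawn as triangles.

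Cdkn1a RNA did not pass the test in any comparison. Its TPM was 173, 155 and 179 in the CBPWTp53-floxed mice, 214, 191 and 120 in the CBPAAp53-floxed mice, 180, 126.7 and 173 in the CBPWTp53ΔIEC mice, and 139, 164 and 184 in the CBPAAp53ΔIEC mice. The widest spread was among the CBPAAp53-floxed mice, whose lowest and highest values enclosed those of all other mice, and all 4 groups overlapped. Each library held at least 2214 Cdkn1a reads, so counting error was small beside the spread between mice. For p53 deletion averaged over both CBP genotypes the log2 fold change was -0.12 (SE 0.14, 95% interval -0.43 to 0.19, adjusted p = 0.670, edgeR). In CBPWTp53ΔIEC vs. CBPWTp53-floxed it was -0.02 (SE 0.20, interval -0.45 to 0.42) and in CBPAAp53ΔIEC vs. CBPAAp53-floxed -0.22 (SE 0.20, interval -0.65 to 0.21). The CBP comparison, CBPAAp53-floxed vs. CBPWTp53-floxed, gave 0.16 (SE 0.20, interval -0.28 to 0.59, adjusted p = 0.826), which is a fold of 1.12 with an interval from 0.825 to 1.51. CBPAAp53ΔIEC vs. CBPWTp53ΔIEC gave -0.05 (SE 0.20), the CBP genotype averaged over both p53 states 0.06 (SE 0.14), and the interaction of CBP genotype and p53 deletion -0.20 (SE 0.28, adjusted p = 0.790). The sign for p53 deletion depended on the libraries. It was -0.31 (SE 0.11, adjusted p = 0.0658) without the 2 p53ΔIEC libraries numbered under 200, and 0.20 (SE 0.14, adjusted p = 0.616) with a term for a number above 200. The fit with the term rests mainly on those 2 libraries, 1 per CBP genotype.

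Some other p53 targets fell in the same mice. Of the 21 listed, 6 fell, none rose and the others were not called with p53 deletion over both CBP genotypes, where 3.5% of the genes tested were called (an edgeR adjusted p below 0.05 with at least 0.5 of log2 change either way). The list's median log2 fold change was -0.16, beside 0.01 over all genes tested. Eda2r, a TNF receptor family member, was at 0.596 to 0.951 TPM in the p53-floxed mice and at most 0.0653 in the p53ΔIEC mice. Phlda3, an inhibitor of AKT signalling, was at 1.02 to 2.56 and at most 0.370 TPM. Both had 3 or fewer reads in every p53ΔIEC library, so no fold is given. Ephx1, an epoxide hydrolase, fell by 1.86 on the log2 scale (SE 0.15, adjusted p = 1.3e-04), from 18.9 to 23.2 TPM down to 3.66 to 7.99, with no overlap. Plk2, a polo-like kinase, fell by 0.61 (SE 0.10), Ccng1 (cyclin G1) by 0.57 (SE 0.09) and Trp53inp1, a stress protein, by 0.54 (SE 0.12). Of the genes whose p53 elements are printed above, Ccng1 was called, while Cdkn1a and Rps27l (-0.14, SE 0.18) were not. Mdm2, the p53 antagonist, had a log2 fold change of -0.01 (SE 0.08). Without the 2 libraries numbered under 200, 7 of the 21 fell, in a fit that called 11.4% of genes. With the number as a term 3 fell and Sesn1 rose, and the share of all genes called in that fit is not given here. Eda2r, Ephx1 and Phlda3 fell in both fits.

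**Figure D2:**
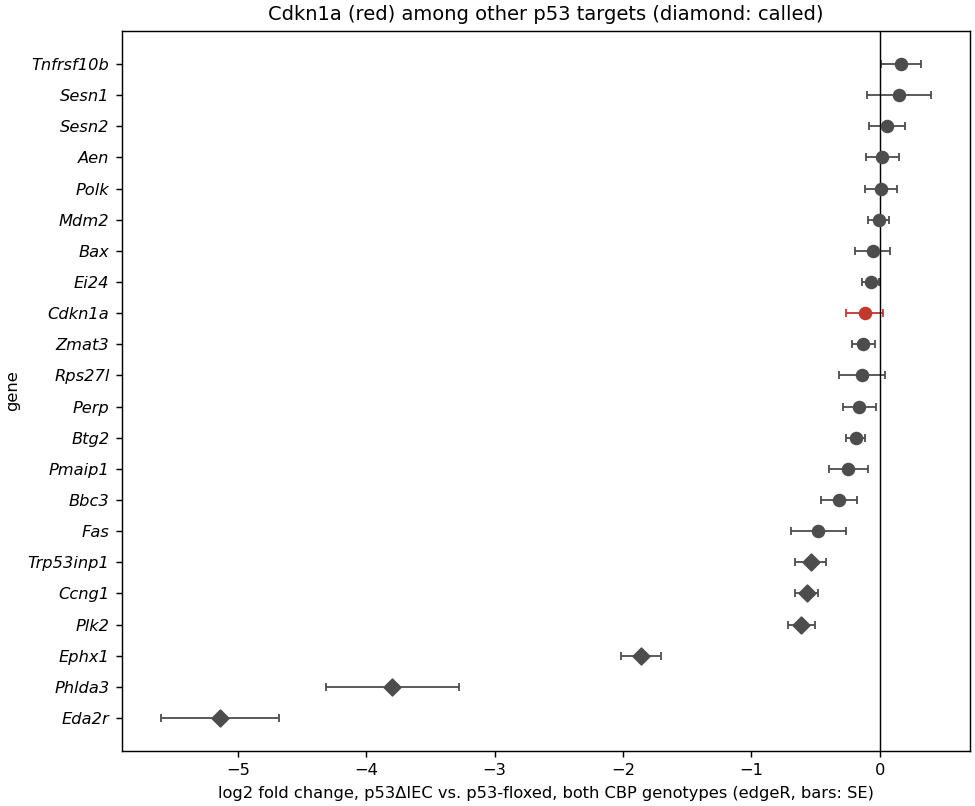
Log2 fold change (x axis) for p53ΔIEC vs. p53-floxed mice averaged over both CBP genotypes, with SE bars, for Cdkn1a (red) and 21 other p53 targets (y axis); diamonds passed the cutoff. Cdkn1a at -0.12 sits among the genes near 0, while Eda2r, Phlda3 and Ephx1 lie far to the left. Eda2r and Phlda3 had at most 2 and 3 reads in any p53ΔIEC library, so the size of their fold is not resolved.

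Cdkn1b and Cdkn1c, the other CIP/KIP genes, were not called either. Cdkn1b (p27) had a TPM of 55.2, 57.7 and 63.7 in CBPWTp53-floxed, 57.3, 43.6 and 47.2 in CBPAAp53-floxed, 38.0, 56.8 and 60.4 in CBPWTp53ΔIEC, and 51.8, 53.1 and 56.5 in CBPAAp53ΔIEC mice. All groups overlapped in TPM. Its log2 fold change for p53 deletion was -0.09 (SE 0.07, 95% interval -0.24 to 0.07), the narrowest interval of the set. Cdkn1c (p57) is an imprinted gene and had the lowest TPM of its class, with 19.6, 12.2 and 17.995, then 14.4, 19.1 and 16.9 in the p53-floxed groups, and 14.0, 12.4 and 13.8, then 15.4, 11.3 and 15.5 in the p53ΔIEC groups. Of the p53ΔIEC mice, 1 lay below the p53-floxed range and the others inside it. The log2 fold change was -0.33 (SE 0.16, interval -0.67 to 0.01, adjusted p = 0.243), and -0.47 (SE 0.16, adjusted p = 0.0521) without the 2 libraries numbered under 200.

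Cdkn2c (p18) rose with p53 deletion and was the only member called, 1 of 9, where 2.77% of the genes tested were called in that direction. Its TPM was 6.63, 6.03 and 6.36 in the CBPWTp53-floxed mice and 6.81, 6.45 and 6.84 in the CBPAAp53-floxed mice. It was 8.27, 20.6 and 17.2 in the CBPWTp53ΔIEC mice and 16.0, 16.3 and 7.80 in the CBPAAp53ΔIEC mice. The 6 p53ΔIEC mice were above all 6 p53-floxed mice in TPM, and 1.19% of the genes tested did not overlap between these 12 mice. In TMM-scaled CPM (a level scaled to library size alone), a p53-floxed library (8.47) was above a p53ΔIEC library (8.22), while 1.76% of genes did not overlap on that scale. The lowest p53ΔIEC values were those of the 2 libraries numbered under 200. The log2 fold change over both CBP genotypes was 1.07 (SE 0.19, 95% interval 0.65 to 1.48, adjusted p = 0.0132, edgeR), a fold of 2.09. In CBPWTp53ΔIEC vs. CBPWTp53-floxed, where 3.15% of genes were called and 2.29% in this direction, it was 1.28 (SE 0.27, adjusted p = 0.0335). In CBPAAp53ΔIEC vs. CBPAAp53-floxed, where 0.0274% were called, it was 0.85 (SE 0.27, adjusted p = 0.320). The interaction was -0.43 (SE 0.38, adjusted p = 0.679), so these 2 values were not shown to differ. The call rested on the libraries numbered above 200. Without the 2 lower-numbered p53ΔIEC libraries the log2 fold change was 1.30 (SE 0.11, adjusted p = 2.7e-06), in a fit that called 11.4% of genes; it was 1.49 within CBPWT and 1.11 within CBPAA mice, where 9.23% and 8.12% were called. With a term for the number it was 0.41 (SE 0.14, adjusted p = 0.251), and among the 8 libraries numbered under 200 alone it was 0.40. Both values rest mainly on the same 2 p53ΔIEC libraries, 1 per CBP genotype, so they are not separate checks. With p53-floxed libraries only under 200, p53 state and the number cannot be told apart in the other 4 libraries. Within CBPWT mice the call was also lost, at an edgeR adjusted p of 0.104 to 0.158, when any CBPWTp53-floxed mouse or CBPWTp53ΔIEC replicate 2 or 3 was left out, and over both CBP genotypes without CBPWTp53-floxed replicate 3 (adjusted p = 0.0547).

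In CBPWTp53ΔIEC vs. CBPWTp53-floxed, the TPM of Cdkn2c alone among the members did not overlap, as held for 21.4% of genes tested. On the CPM scale, where 30.8% did not overlap, Cdkn2c, Cdkn2d and Ccnd1 were higher and Cdkn1b lower in every p53ΔIEC mouse. In CBPAAp53ΔIEC vs. CBPAAp53-floxed, the TPM of Cdkn2b and Cdkn2c was higher in every p53ΔIEC mouse, and 14.4% of genes did not overlap; on the CPM scale, where 15% did not, all 9 members overlapped.

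Cdkn2d (p19) had a like pattern and did not pass the cutoff in all 12 libraries. Its TPM was 14.9, 16.3 and 16.8 in CBPWTp53-floxed, 13.0, 16.2 and 12.9 in CBPAAp53-floxed, 14.1, 26.1 and 27.4 in CBPWTp53ΔIEC, and 25.5, 25.1 and 13.9 in CBPAAp53ΔIEC mice. The 4 p53ΔIEC libraries numbered above 200 were above every other library, and the other 2 were inside the p53-floxed range. The log2 fold change over both CBP genotypes was 0.48 (SE 0.16, 95% interval 0.15 to 0.82, adjusted p = 0.0944). It was 0.66 (SE 0.10, adjusted p = 5.8e-04) and called without the 2 libraries, and -0.00 (SE 0.14, adjusted p = 0.993) with a term for the number.

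Cdkn2b (p15), a gene known for its induction by TGF-β, varied least among the INK4 genes. Its TPM was 84.2, 83.2 and 91.6 in CBPWTp53-floxed, 83.9, 88.2 and 63.8 in CBPAAp53-floxed, 90.9, 93.1 and 88.3 in CBPWTp53ΔIEC, and 91.8, 99.7 and 92.3 in CBPAAp53ΔIEC mice. A CBPAAp53-floxed library was the lowest of the 12, and the ratio of the highest to the lowest was 1.56. The log2 fold change for p53 deletion was 0.13 (SE 0.09, interval -0.06 to 0.32, adjusted p = 0.410). Cdkn2a, which encodes p16 and, from an upstream start, the p53 activator p19ARF, was nearly undetected. It had 2 reads in CBPAAp53ΔIEC replicate 1 and 1 read in CBPWTp53ΔIEC replicate 3, at 0.317 and 0.167 TPM, and 0 in the other 10 libraries. In a library of this depth 0 reads allow up to a CPM of 0.166 to 0.268 (3 counts of the total, counting error only), so a low level was not detectable.

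**Figure D3:**
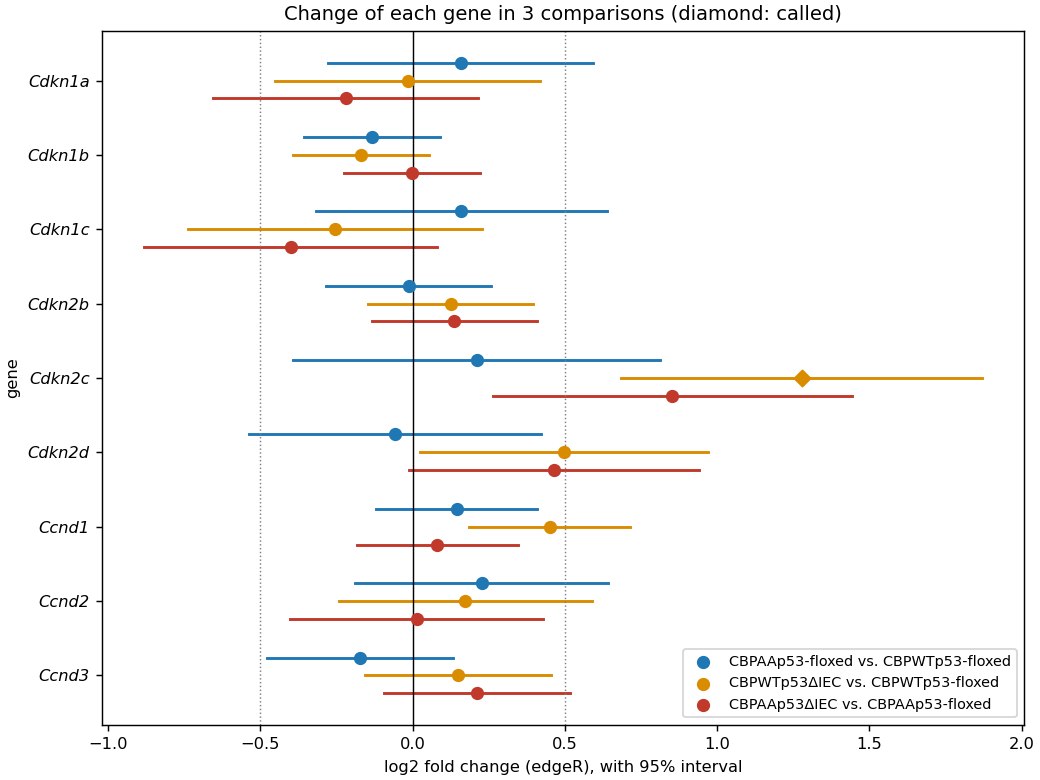
Log2 fold change with its 95% interval (x axis) of 9 members (y axis) in 3 comparisons, given by colour; the dotted lines are the fold cutoff of 0.5 and the diamond is the gene that passed. Cdkn2c in CBPWTp53ΔIEC vs. CBPWTp53-floxed, at 1.28, is the diamond, and the intervals of Cdkn1a cross 0 in all 3.

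Among the D-type cyclins, none was called by edgeR or DESeq2 with all 12 libraries. Ccnd1, a Wnt target in many tissues, had a TPM of 45.5, 46.9 and 50.8 in CBPWTp53-floxed, 57.1, 43.1 and 45.5 in CBPAAp53-floxed, 45.2, 68.7 and 80.3 in CBPWTp53ΔIEC, and 63.0, 59.3 and 46.4 in CBPAAp53ΔIEC mice. The 4 libraries numbered above 200 were the highest. In CBPWTp53ΔIEC vs. CBPWTp53-floxed its edgeR log2 fold change was 0.45 (SE 0.12, adjusted p = 0.0603), and in CBPAAp53ΔIEC vs. CBPAAp53-floxed 0.08 (SE 0.12, adjusted p = 0.797). In the first of these DESeq2 gave Ccnd1 an adjusted p under 0.05, under the fold cutoff. The interaction was -0.37 (SE 0.17, 95% interval -0.74 to 0.00, adjusted p = 0.482), so a difference between the CBP genotypes was not shown. Over both genotypes the log2 fold change was 0.27 (SE 0.09, adjusted p = 0.0962), 0.37 (SE 0.07, adjusted p = 0.00220, under the fold cutoff) without the 2 libraries, and 0.03 (SE 0.08) with a term for the number.

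Ccnd2, the other D-type cyclin of high level, varied widely within groups. Its TPM was 45.3, 53.5 and 51.7 in CBPWTp53-floxed, 75.5, 39.3 and 48.8 in CBPAAp53-floxed, 38.9, 56.4 and 73.9 in CBPWTp53ΔIEC, and 57.8, 73.8 and 47.5 in CBPAAp53ΔIEC mice. The highest value was in a CBPAAp53-floxed mouse and the groups overlapped. The log2 fold change for p53 deletion was 0.09 (SE 0.14, adjusted p = 0.728), and -0.17 (SE 0.16) with a term for the number. Ccnd3 had a TPM of 14.3, 15.3 and 16.5 in CBPWTp53-floxed, 13.6, 14.0 and 10.0 in CBPAAp53-floxed, 10.8, 19.0 and 21.3 in CBPWTp53ΔIEC, and 17.1, 17.0 and 13.6 in CBPAAp53ΔIEC mice. The p53-floxed groups did not overlap in its TPM, as held for 17% of the genes tested, and did overlap in TMM-scaled CPM. Its log2 fold change for p53 deletion was 0.18 (SE 0.10, adjusted p = 0.312), 0.29 (SE 0.08, adjusted p = 0.0136, under the fold cutoff) without the 2 libraries, and -0.09 (SE 0.10) with a term for the number. The D-type cyclins together summed to 113 ± 7.24 TPM in CBPWTp53-floxed, 116 ± 26.8 in CBPAAp53-floxed, 138 ± 40.6 in CBPWTp53ΔIEC and 132 ± 21.9 in CBPAAp53ΔIEC mice (SD, n = 3).

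**Figure D4:**
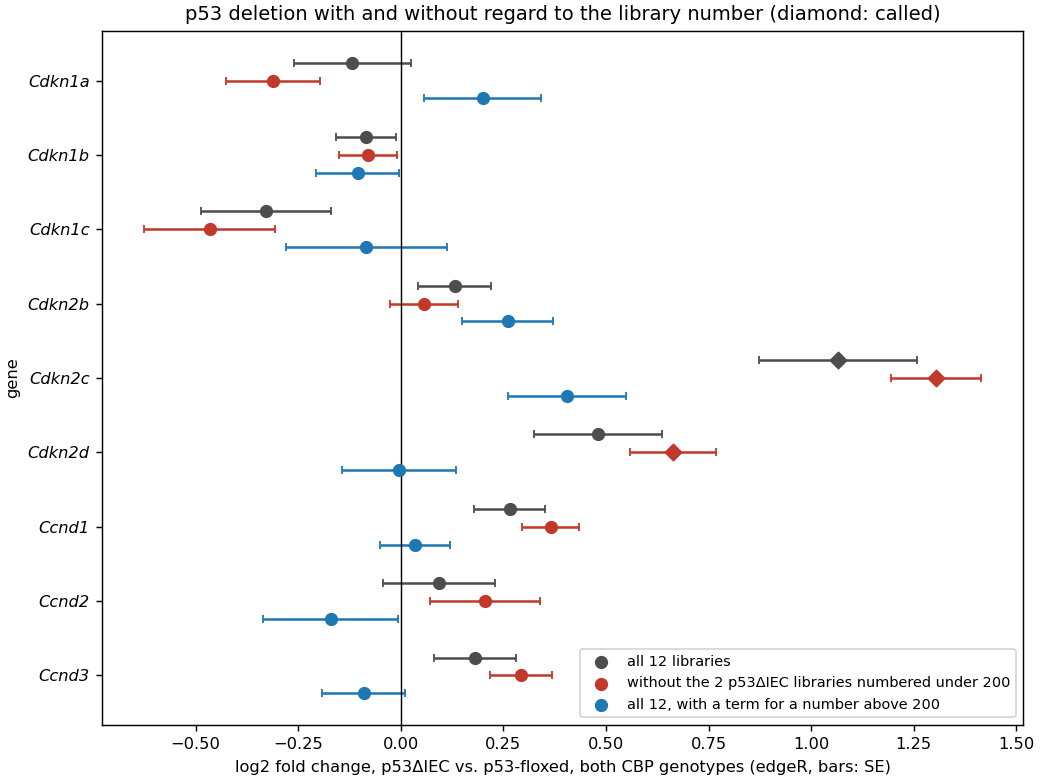
Log2 fold change (x axis, with SE bars) for p53ΔIEC vs. p53-floxed mice averaged over both CBP genotypes, for 9 members (y axis) in 3 fits given by colour; diamonds passed the cutoff. Cdkn2c moves from 1.07 with all libraries to 1.30 without the 2 p53ΔIEC libraries numbered under 200 and to 0.41 with a term for the number, and Cdkn1a changes sign.

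The CBP genotype gave no call among the 9 members in any comparison. In CBPAAp53-floxed vs. CBPWTp53-floxed, where 0% of the genes tested were called by edgeR (1174 had an unadjusted p under 0.05, and DESeq2 called 33), the log2 fold changes ran from -0.17 (Ccnd3, SE 0.14) to 0.23 (Ccnd2, SE 0.19), with 0 members at an unadjusted p under 0.05 and a lowest adjusted p of 0.714. DESeq2 called 0 members there too. For Cdkn2c, the value was 0.21 (SE 0.28, 95% interval -0.39 to 0.81). In CBPAAp53ΔIEC vs. CBPWTp53ΔIEC, where 0.00684% of genes were called, the largest member value was that of Ccnd1, -0.22 (SE 0.12, adjusted p = 0.985), and 0 members had an unadjusted p under 0.05 with either tool. Averaged over both p53 states and in the interaction, where 0.00684% were called in each, 0 members were called with either tool. The unadjusted p was under 0.05 for 0 members, apart from Ccnd1 in the interaction by DESeq2. The p53 deletion within CBPAA mice likewise had 0 members called with either tool, and 1, Cdkn2c, at an unadjusted p under 0.05.

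Partners of the members were called in the same comparison. Of 20 CDK partners and RB pathway genes, 8 rose and none fell with p53 deletion over both CBP genotypes, where 2.77% of the genes tested were called in that direction, with a median log2 fold change of 0.37. Those that rose most were Ccna2 (cyclin A2) at 1.74 (SE 0.31), Cdk1, the mitotic kinase, at 1.38 (SE 0.22), Ccne1 (cyclin E1) at 1.31 (SE 0.22) and Cks1b, a CDK subunit, at 1.23 (SE 0.20). Cdk4 and Cdk6, which the D-type cyclins bind, were at 59.9 to 92.1 TPM and 11.4 to 18.6 TPM in the 12 mice and were not called, with log2 fold changes of 0.22 (SE 0.07) and -0.12 (SE 0.09). All 18 proliferation markers rose, with a median of 1.46; 16 rose in CBPWTp53ΔIEC vs. CBPWTp53-floxed (median 1.72) and none was called in CBPAAp53ΔIEC vs. CBPAAp53-floxed (median 1.20), where 14 had an unadjusted p under 0.05 and DESeq2 called 4. With a term for the library number none of the 20 partners was called and 2 of the 18 proliferation markers rose. The share of all genes called in that fit is not given here, so the loss of calls cannot be read as particular to these lists. Without the 2 libraries, in the fit that called 11.4% of genes, 10 and 18 rose.

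**Figure D5:**
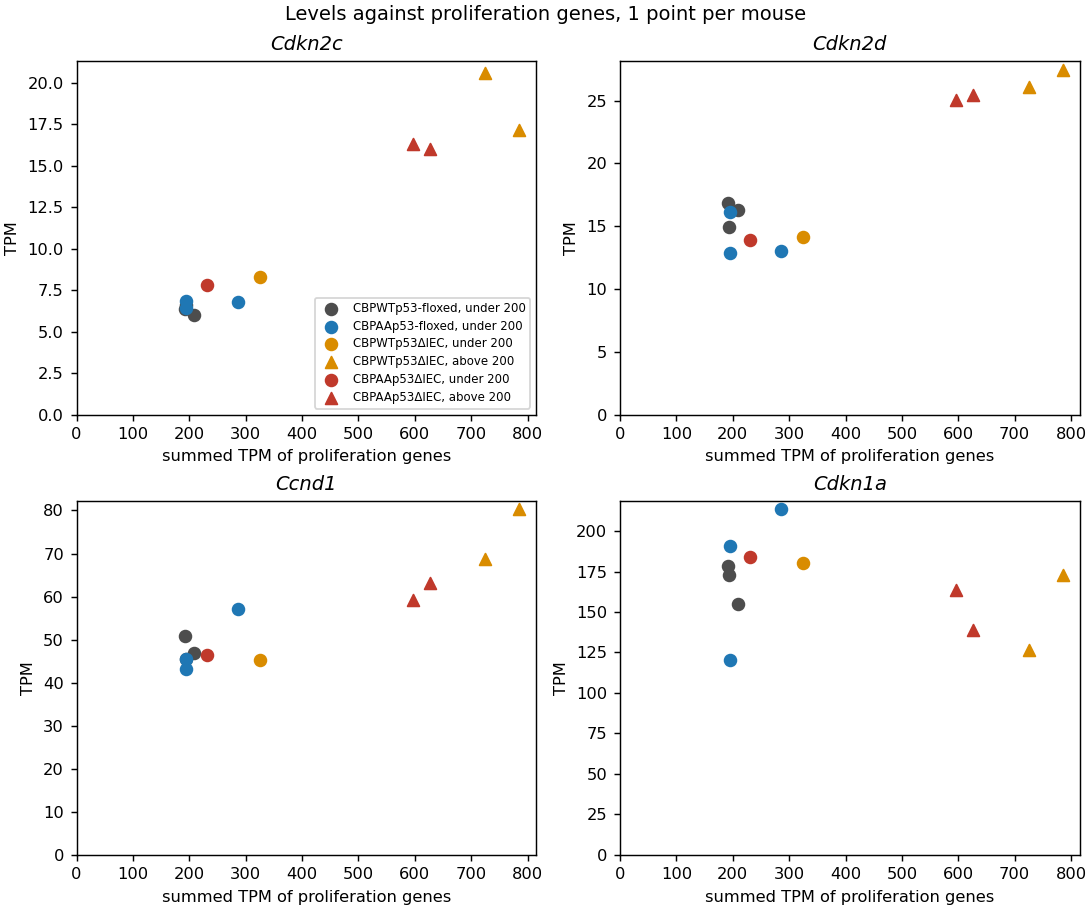
TPM (y axis) of Cdkn2c, Cdkn2d, Ccnd1 and Cdkn1a against the summed TPM of 18 proliferation markers (x axis), with a point per mouse, colours for groups, circles for libraries numbered under 200 and triangles for those above. The 4 triangles lie at 597 to 786 on the x axis and are the highest points for Cdkn2c, Cdkn2d and Ccnd1, and lie within the range of the other points for Cdkn1a.

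Of 20 regulators of the members, among them Myc, Klf4 and the SMADs, none was called with p53 deletion over both CBP genotypes by edgeR or DESeq2, and 4 had an unadjusted p under 0.05. Myc, which represses Cdkn1a and induces Ccnd2, was at 30.6 to 47.9 TPM in p53-floxed and 28.3 to 42.2 in p53ΔIEC mice. In CBPAAp53-floxed vs. CBPWTp53-floxed none of the 20 was called by either tool, with 3 at an unadjusted p under 0.05. Myc had the lowest p there (log2 fold change 0.40, SE 0.10, adjusted p = 0.605, edgeR), and 9 of the 20 had a positive change. With p53 deletion over both CBP genotypes, none of 10 crypt base and Wnt target genes was called by either tool, with 3 at an unadjusted p under 0.05. In this comparison, with 3.5% of the genes tested called, Car1 rose and Slc9a3 fell of 10 surface colonocyte genes. Of 13 clock genes tested Cry1 rose and Per2 and Per3 fell, with a median of -0.86. None of these surface colonocyte or clock genes was called by edgeR with a term for the library number. The share of all genes called in that fit is not given here, and the median of the clock genes was -0.27 there. Without the 2 p53ΔIEC libraries numbered under 200, where 11.4% of genes were called, 2 clock genes rose and 9 fell, with a median of -1.23, and 1 surface colonocyte gene rose and 3 fell. None of 12 immediate early and stress genes was called by edgeR, with 3 at an unadjusted p under 0.05 and 3 called by DESeq2; without the 2 libraries 2 rose and 1 fell. Of the markers of cell types, 0 of 8 epithelial, 0 of 13 leukocyte and 0 of 14 small intestine and Paneth genes were called by edgeR. Of these, 3, 1 and 4 had an unadjusted p under 0.05, and DESeq2 called 0, 0 and 6. For p53 deletion over both CBP genotypes, the shares of all genes at an unadjusted p under 0.05 or called by DESeq2 are not given here. Without the 2 libraries, where 11.4% of genes were called, Cd44 of the crypt base genes rose and Cbx7 of the regulators fell. In that fit the epithelial Lgals4, the leukocyte Ptprc and the small intestine gene Apob also fell. With a term for the number the epithelial Vil1 rose. Of the 3 stromal and endothelial genes tested Pdgfrb fell, also without the 2 libraries, and was not called with a term for the number. The median log2 fold change of the small intestine and Paneth genes was 2.72 for p53 deletion with all 12 libraries. It was 0.00706 without the 2 p53ΔIEC libraries numbered under 200 and 4.20 with a term for the number. In CBPAAp53-floxed vs. CBPWTp53-floxed the median was 2.59, and DESeq2 called 2 of these genes there and edgeR none. Their part in the values of the members was not tested.

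The genes whose log2 CPM followed each member most closely over the 12 libraries were taken by Pearson's r, as a description; the libraries share depth, groups and the split by number. For Cdkn1a they were Tnip1 (r = 0.972), Cnksr1 (0.941) and Ifngr1 (0.926), and for Cdkn1b Usf3 (0.973), Naip3 (0.963) and Gm37261 (0.958). For Cdkn1c they were Marchf2 (0.921), Vdac3-ps1 (0.916) and Stard3nl (0.901). Cdkn2c had the highest values of the set, with Nasp (0.989), a histone chaperone, Dbf4 (0.988), an activator of the S-phase kinase CDC7, and Spc25 (0.984), a kinetochore subunit. For Cdkn2d they were Gla (0.973), Fads3 (0.962) and Chek2 (0.958), and for Cdkn2b Mapk4 (0.885), Erich4 (0.883) and Pcgf1 (0.850). Ccnd1 was followed by Psmd2 (0.969), a proteasome subunit, Mcm4 (0.964), a subunit of the replicative helicase, and Rrm1 (0.957), of ribonucleotide reductase. For Ccnd2 they were Naf1 (0.942), Ttc39aos1 (0.916) and Ccdc141 (0.871), and for Ccnd3 Hmces (0.972), Mmaa (0.954) and Apeh (0.933).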

How the data were processed

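Raw read counts per gene and library were deposited by the authors, without normalization, beside TPM values that the authors scaled to gene length and library size. Per the submitters' processing notes the tools were fastp 0.20.0, FastQC 0.11.9, HISAT2 2.1.0, SAMtools 1.9 and featureCounts of Subread 2.0.1, with GRCm38; the annotation version is not given in the sources used here. The table also holds the authors' fold changes and p-values for 5 comparisons, which were not used. Rows with no symbol held 0.278% of the counts.

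The 12 libraries were fitted as 4 groups by the robust quasi-likelihood test of edgeR 4.0.16 in R 4.3.3, after filterByExpr (minimum count 10) and TMM scaling, with Benjamini-Hochberg adjustment over the 14610 genes tested. A call needs, as in the study's cutoff, an adjusted p below 0.05 with at least 0.5 of log2 change either way; intervals cover 95%. The fit was checked on simulated counts. Alternatives were DESeq2 1.42.0, its size factors in edgeR, other filters, a block for the replicate number, leaving out every library in turn, only the 2 groups compared and no fold cutoff; those that use the library number were chosen after seeing the data. TPM was used to compare levels and to see whether groups overlapped, and in no test. Positions came from GENCODE vM21 and promoter windows from RefSeq GRCm38.p6, and figures were drawn with matplotlib 3.10.9.

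The members and 12 gene lists were chosen with earlier results of these data known. All members are named, at most 4 called genes per list by size of change, the 3 genes most like each member, Trp53 and genes that overlap members. Others in the lists, the genes with p53 elements, Cdk4, Cdk6, Myc and Mdm2, were named after their values were seen. P-values measure the spread between mice.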

Additional observations from a re-analysis of the deposited data

How the results depend on the processing

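Cdkn1a was called under none of the alternatives run, but its sign was not stable. With the library number as a term, its log2 fold change was 0.29 in CBPWTp53ΔIEC vs. CBPWTp53-floxed, 0.11 in CBPAAp53ΔIEC vs. CBPAAp53-floxed and 0.20 over both CBP genotypes, and among libraries numbered under 200 it was 0.39, 0.00184 and 0.20, and -0.0370 for the CBP genotype over both p53 states. Without the 2 p53ΔIEC libraries numbered under 200 it was 0.0819 in CBPAAp53ΔIEC vs. CBPWTp53ΔIEC. Leaving out each library in turn, it ran from -0.27 to 0.16 in CBPWTp53ΔIEC vs. CBPWTp53-floxed, from -0.22 to 0.21 in CBPAAp53ΔIEC vs. CBPWTp53ΔIEC, from -0.0299 to 0.18 for the CBP genotype and from -0.38 to 0.0549 in the interaction, and Ccnd2 from -0.00639 to 0.19 for p53 deletion. With the number as a term, and among libraries under 200, p53 deletion gave -0.00438 and -0.00366 for Cdkn2d, -0.17 and -0.17 for Ccnd2, and -0.0899 and -0.0933 for Ccnd3, and in CBPAAp53ΔIEC vs. CBPAAp53-floxed -0.0279 and -0.12 for Cdkn2d and -0.15 and -0.15 for Ccnd1. With that term 0 members were called in CBPWTp53ΔIEC vs. CBPWTp53-floxed or over both genotypes (share of all genes called not given). Without the 2 libraries 3 (Cdkn2c, Cdkn2d, Ccnd1) and 2 (Cdkn2c, Cdkn2d) were, and the same 2 within CBPAA mice. These fits called 9.23%, 11.4% and 8.12% of genes. The cause was not tested.

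Leaving out each library in turn, 0 to 2 members were called in CBPWTp53ΔIEC vs. CBPWTp53-floxed, 0 to 1 in CBPAAp53ΔIEC vs. CBPAAp53-floxed and 0 to 2 over both CBP genotypes. In the first, Cdkn2c lost its call without any of the CBPWTp53-floxed replicates or without CBPWTp53ΔIEC replicate 2 or 3, and over both genotypes without CBPWTp53-floxed replicate 3, while CBPWTp53ΔIEC replicate 1 left out added Ccnd1 in the first and Cdkn2d over both genotypes, and CBPAAp53ΔIEC replicate 3 left out added Cdkn2d over both and gave Cdkn2c a call within CBPAA mice. In these fits the log2 fold change of Cdkn2c stayed at 1.02 to 1.49 in the first and 0.93 to 1.20 over both genotypes. With the replicate number as a block, Cdkn2c was 1.25 (adjusted p = 0.0640, 0 members called) in CBPWTp53ΔIEC vs. CBPWTp53-floxed and 1.04 (adjusted p = 0.0349) over both genotypes, and no other call of a member changed. The replicate numbers were not shown to pair the libraries. Of 18 pairs with the same replicate number, 3 had a correlation above 0.1, and 3 of 12 libraries correlated best with their own. With 3 mice a group this cannot exclude pairing, as the 2 p53ΔIEC libraries numbered under 200 differ in replicate number and correlated at 0.643. DESeq2, its size factors, both filters, the 2 groups alone and no fold cutoff changed no call of a member. DESeq2 called more genes than edgeR, 865 against 460 in CBPWTp53ΔIEC vs. CBPWTp53-floxed, 69 against 4 in CBPAAp53ΔIEC vs. CBPAAp53-floxed, 33 against 0 in CBPAAp53-floxed vs. CBPWTp53-floxed, 5 against 1 for the CBP genotype and 30 against 1 in the interaction, and the block 32 in the first of these, 2 in the second and 304 against 511 over both CBP genotypes. Without a filter 3, 11 and 2 genes were called in CBPAAp53-floxed vs. CBPWTp53-floxed, CBPAAp53ΔIEC vs. CBPAAp53-floxed and the interaction, and with the 2 groups alone 723 in CBPWTp53ΔIEC vs. CBPWTp53-floxed, 1 in CBPAAp53ΔIEC vs. CBPAAp53-floxed and 0 in CBPAAp53ΔIEC vs. CBPWTp53ΔIEC. Leaving out a library gave 1 to 906 calls within CBPWT mice, 1 to 326 within CBPAA mice and 105 to 1073 over both. With 3 mice a group, the 95% intervals of Cdkn1a ran from -0.65 to 0.21 in CBPAAp53ΔIEC vs. CBPAAp53-floxed and from -0.82 to 0.41 in the interaction.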
